A study of Homo sapiens with 6 samples.

Results

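The genes of 10 apolipoproteins were followed in subcutaneous tumours of nude mice, which lack mature T cells, grown from Huh7, an established human line of hepatocellular carcinoma. The genes were APOA1, APOA2, APOA4, APOA5, APOB, APOC1, APOC3, APOE, APOH and APOM, chosen by name, and each matched 1 probe set (10 of 24726 probe sets in all). The IR-A group held 3 tumours of cells stably transfected with the plasmid pRcCMVi.hIR-A(GFP), which carries isoform A of the human insulin receptor. The control group held 3 tumours of cells transfected with the empty vector. Both cell populations had gone through G418 and cytometric selection for GFP before injection, and the sources used here do not say whether either was a clone or a pool. Each tumour was read on 1 Affymetrix array, and the values are log2 signals, so a difference of 1 is a 2-fold signal. The comparison asks how far the apolipoprotein transcripts differed between tumours with and without the added receptor.

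Apolipoproteins are the protein part of lipoproteins, the particles that carry fat and cholesterol in plasma. APOB is the structural protein of very low and low density lipoprotein, and APOA1 and APOA2 are the main proteins of high density lipoprotein. The smaller exchangeable members move between particles and steer lipases and receptors. Most of them are made by hepatocytes, where insulin is known to lower transcription of APOC3 through the forkhead factor FOXO1 and to reduce the release of APOB.

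No apolipoprotein passed limma's test after Benjamini-Hochberg adjustment over all probe sets at 0.05 (0 of 10, against 0% of all probe sets), and APOE had the lowest adjusted p of the 10 (0.169). APOE, APOB, APOA1 and APOC3 had higher signal in every IR-A tumour than in any control tumour. APOA4 had the largest difference, 1.18 on the log2 scale, but its groups overlapped. APOM had lower mean signal in IR-A tumours, at -0.63 with overlapping groups, and APOA2 was nearly level. The mean signal was higher in IR-A tumours for 8 of the 10 genes, against 44% of all probe sets, and under quantile normalization for 9 of 10, where APOA2 turned to 0.07. The median difference of the 10 was 0.40, against -0.03 for all probe sets. Without control tumour 1 the median was 0.28.

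**Figure D1:**
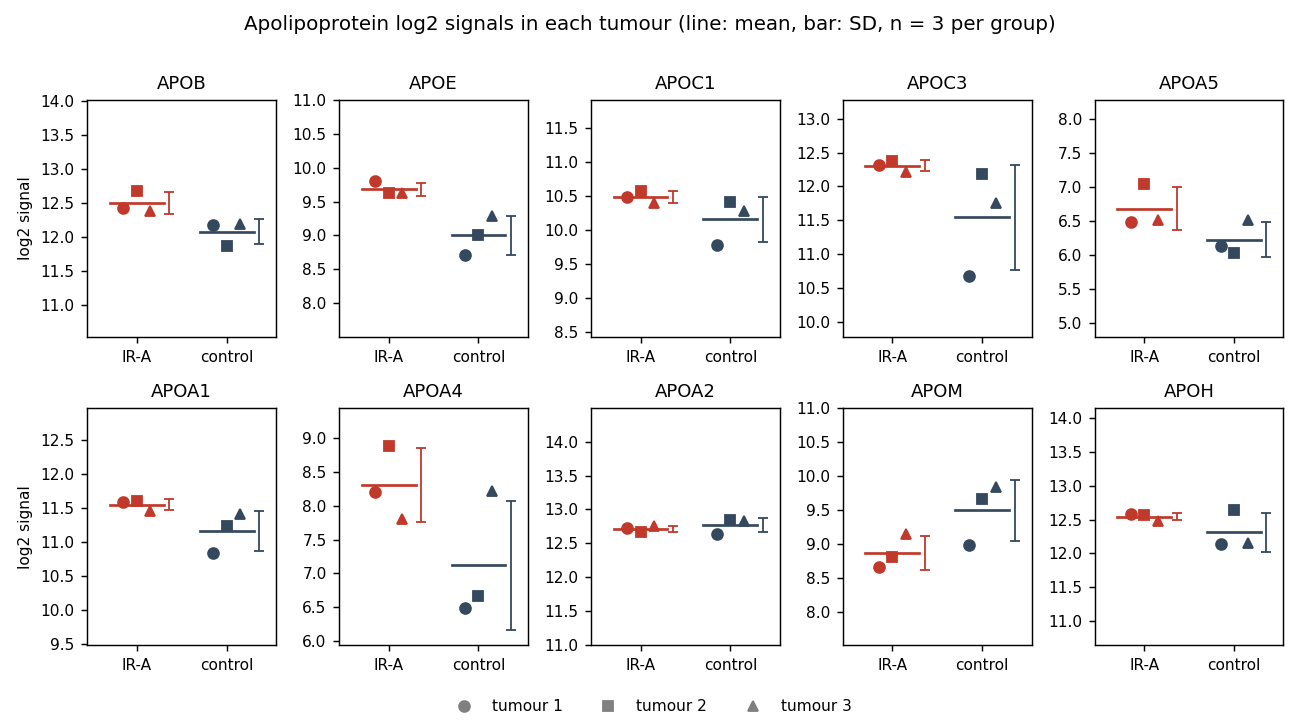
Log2 signal (y axis, all panels span the same height) of the 10 apolipoproteins in IR-A tumours (red, left) and control tumours (dark, right), with marker shapes for tumours 1 to 3, a line for the mean and a bar for the SD. APOE, APOB, APOA1 and APOC3 do not overlap between groups, and in APOC3 the control tumours spread from 10.68 to 12.19 while the IR-A tumours lie within 12.22 to 12.38.

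The promoter sequences of 4 members are shown to set genes of different behaviour side by side. APOE had the smallest p, APOA5 lies in the chromosome 11 cluster whose 4 genes were all higher on average, APOM was lower, and APOA2 was nearly level. Each is the 300 bases from 250 before to 50 after an annotated start in RefSeq on GRCh38.p14, read 5′ to 3′ on the gene's strand. Where RefSeq gives a gene several starts, the most upstream one was taken. The windows are chr19:44905546-44905845 on the plus strand for APOE, chr11:116792371-116792670 on the minus strand for APOA5, chr6:31655644-31655943 on the plus strand for APOM and chr1:161223579-161223878 on the minus strand for APOA2. Capitals mark matches on either strand to 4 motifs.
APOE: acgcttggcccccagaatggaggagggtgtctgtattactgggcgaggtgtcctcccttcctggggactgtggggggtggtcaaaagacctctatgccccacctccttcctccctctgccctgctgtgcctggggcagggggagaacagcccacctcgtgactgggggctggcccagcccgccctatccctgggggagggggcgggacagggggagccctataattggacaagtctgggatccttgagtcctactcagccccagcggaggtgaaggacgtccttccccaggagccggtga
APOA5: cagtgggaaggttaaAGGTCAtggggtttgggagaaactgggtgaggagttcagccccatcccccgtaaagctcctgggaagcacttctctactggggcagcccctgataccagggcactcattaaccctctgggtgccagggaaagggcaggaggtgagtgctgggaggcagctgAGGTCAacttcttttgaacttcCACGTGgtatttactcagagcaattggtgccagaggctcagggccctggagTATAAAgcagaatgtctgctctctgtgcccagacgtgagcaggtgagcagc
APOM: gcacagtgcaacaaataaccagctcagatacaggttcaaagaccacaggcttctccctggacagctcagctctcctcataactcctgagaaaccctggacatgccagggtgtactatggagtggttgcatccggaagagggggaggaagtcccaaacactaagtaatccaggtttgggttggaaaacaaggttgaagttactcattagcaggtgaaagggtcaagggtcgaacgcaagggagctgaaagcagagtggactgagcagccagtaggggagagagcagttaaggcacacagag
APOA2: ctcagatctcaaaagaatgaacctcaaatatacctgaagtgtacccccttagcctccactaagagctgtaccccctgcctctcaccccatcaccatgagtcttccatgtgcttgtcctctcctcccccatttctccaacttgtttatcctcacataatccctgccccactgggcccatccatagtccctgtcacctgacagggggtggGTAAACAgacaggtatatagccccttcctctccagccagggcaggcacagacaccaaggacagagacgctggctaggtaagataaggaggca

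The motifs were the nuclear receptor half-site AGGTCA, the core GTAAACA bound by forkhead factors, the E-box CACGTG, and the TATA box TATAAA, each searched with its reverse complement. None of the motifs contains another. The half-site is in 13.8% of all 35116 promoter windows, the forkhead core in 3.42%, the E-box in 7.26% and the TATA box in 11.5%. The APOA5 window holds the half-site at 2 places and the E-box and TATA box at 1 place each. The APOA2 window holds the forkhead core once. The windows of APOE and APOM hold none of the 4 motifs, and neither do those of APOA4, APOC1 and APOH, which are not printed. Of the 10 genes, 7 matched a window, and APOA1, APOB and APOC3 are not shown.

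APOB is the scaffold on which very low density lipoprotein is built, and it stays with the particle for life. Its log2 signal was 12.43, 12.68 and 12.37 in IR-A tumours 1 to 3, against 12.18, 11.87 and 12.18 in control tumours 1 to 3. All IR-A tumours lay above all controls, with a gap of 0.19 between the nearest pair. The difference was 0.42 (SE 0.14, 95% interval 0.09 to 0.74), a 1.34-fold signal, with an unadjusted p of 0.0190 and an adjusted p of 0.256 in limma. APOB differed from most members in which control was lowest, which here was control tumour 2.

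APOE is the ligand by which remnant particles bind receptors on hepatocytes. It read 9.80, 9.62 and 9.63 in IR-A tumours, against 8.71, 9.01 and 9.29 in controls. The groups were separated by 0.33, the widest gap among the 10. The mean was 9.68 ± 0.10 in IR-A tumours and 9.00 ± 0.29 in control tumours (SD, n = 3 each). The difference of 0.68 (SE 0.16, 95% interval 0.30 to 1.06) is a 1.60-fold signal, and its unadjusted p was 0.00418. Leaving out 1 tumour at a time gave differences from 0.53 to 0.82.

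The C apolipoproteins adjust how fast triglyceride leaves a particle. APOC3, which inhibits lipoprotein lipase and slows uptake by the liver, read 12.32, 12.38 and 12.22 in IR-A tumours, against 10.68, 12.19 and 11.76 in controls. The groups missed each other by 0.03. Control tumour 2 lay close to the IR-A tumours, and control tumour 1 far below the other controls. The difference was 0.76 (SE 0.36, 95% interval -0.10 to 1.62, adjusted p = 0.417 in limma). It was 0.33 without control tumour 1 and 1.08 without control tumour 2, so its size rests on which control is kept. The SD was 0.08 in IR-A tumours and 0.77 in control tumours.

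APOC1, which inhibits the cholesteryl ester transfer protein, had a smaller difference. It read 10.49, 10.57 and 10.40 in IR-A tumours, against 9.77, 10.41 and 10.28 in controls. Control tumour 2 stood just above IR-A tumour 3, so the groups overlapped. The difference was 0.33 (SE 0.18, adjusted p = 0.471 in limma), and it was 0.14 without control tumour 1.

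APOA1 forms nascent high density lipoprotein with the cholesterol exporter ABCA1. It read 11.58, 11.61 and 11.46 in IR-A tumours, against 10.84, 11.23 and 11.41 in controls. The groups did not overlap, but control tumour 3 lay only 0.05 below the lowest IR-A tumour. The difference was 0.39 (SE 0.16, 95% interval 0.01 to 0.77), with an unadjusted p of 0.0453 and an adjusted p of 0.343 in limma. Without control tumour 1 it was 0.23.

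APOA2, also a structural protein of high density lipoprotein, read 12.73, 12.67 and 12.75 in IR-A tumours, against 12.64, 12.84 and 12.82 in controls. All 6 values lay close together and the groups overlapped. The difference was -0.06 (95% interval -0.28 to 0.17), from -0.12 without control tumour 1 to -0.02 without control tumour 2, and quantile normalization turned it to 0.07. The interval leaves room for a small change either way. APOA2 is also among the brightest probe sets, and whether differences are compressed at that brightness was not tested.

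APOA4 is carried on chylomicrons and high density lipoprotein, and in people it comes mainly from the intestine. It read 8.21, 8.88 and 7.80 in IR-A tumours, against 6.49, 6.66 and 8.21 in controls. Control tumours 1 and 2 lay more than 1 log2 unit below every IR-A tumour, while control tumour 3 lay level with IR-A tumour 1. The mean was 8.30 ± 0.55 in IR-A tumours and 7.12 ± 0.95 in control tumours (SD, n = 3 each). The difference of 1.18 (SE 0.50, 95% interval -0.01 to 2.37, adjusted p = 0.360 in limma) is a 2.26-fold signal. It ran from 0.86 without control tumour 1 to 1.72 without control tumour 3.

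APOA5 aids lipoprotein lipase and lowers plasma triglyceride. It read 6.48, 7.05 and 6.51 in IR-A tumours, against 6.13, 6.03 and 6.52 in controls. IR-A tumour 2 stood above the rest, and control tumour 3 lay level with the other IR-A tumours. The difference was 0.46 (SE 0.20, adjusted p = 0.385 in limma), and 0.27 without IR-A tumour 2. Its interval ran from -0.03 to 0.94.

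APOM carries sphingosine 1-phosphate on high density lipoprotein. It read 8.66, 8.80 and 9.15 in IR-A tumours, against 8.99, 9.67 and 9.84 in controls. IR-A tumours 1 and 2 lay below every control, and IR-A tumour 3 lay above control tumour 1. The mean was 8.87 ± 0.25 in IR-A tumours and 9.50 ± 0.45 in control tumours (SD, n = 3 each). The difference of -0.63 (SE 0.24, 95% interval -1.21 to -0.04) is a 0.648-fold signal, with an unadjusted p of 0.0395 and an adjusted p of 0.330 in limma. Without control tumour 1 it was -0.88.

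APOH, beta-2-glycoprotein I, binds anionic phospholipid and is the main antigen in the antiphospholipid syndrome. It read 12.58, 12.57 and 12.48 in IR-A tumours, against 12.15, 12.64 and 12.15 in controls. Control tumour 2 was the highest of all 6 tumours, while the other controls lay below every IR-A tumour. The difference was 0.23 (SE 0.15, adjusted p = 0.568 in limma), or 0.40 without control tumour 2 (adjusted p = 0.0974, the lowest adjusted p of any member in any setting) and 0.15 without control tumour 1 or without control tumour 3.

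**Figure D2:**
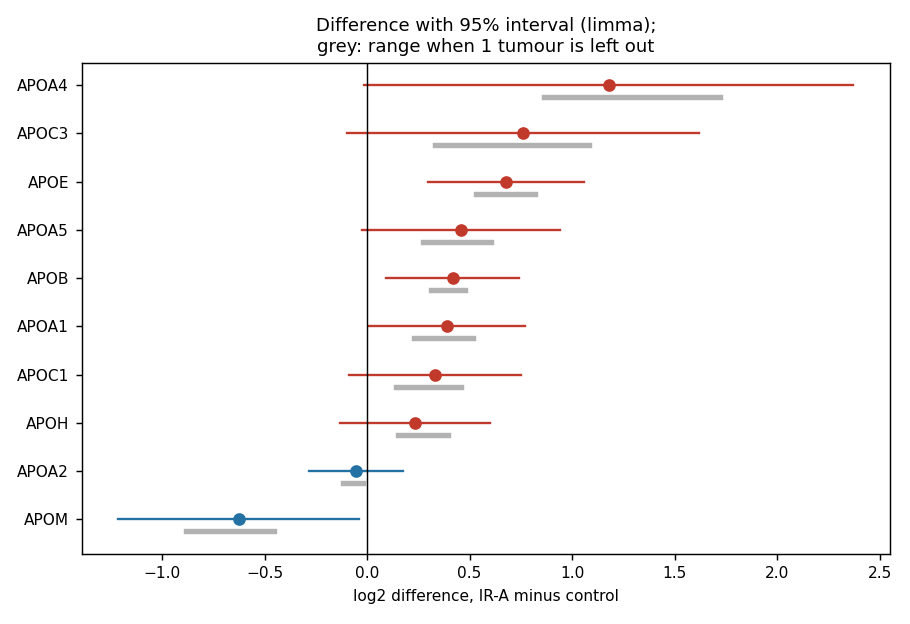
Log2 difference, IR-A minus control (x axis), of each apolipoprotein with limma's 95% interval, in red where the mean was higher and in blue where it was lower in IR-A tumours. Grey bars give the range when 1 tumour is left out, and none of these ranges crosses 0, although 6 of the 10 intervals hold 0. APOA2 turned to 0.07 under quantile normalization.

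At an unadjusted p under 0.05 there were 3 members higher in IR-A tumours, against 7.1% of all probe sets, and 1 lower, against 7.03%. The count of 4 became 2 without IR-A tumour 1 and 1 without IR-A tumour 2, and it was 6 under median centring and 5 under quantile normalization, an intensity trend or array weights. The groups did not overlap in 4 members, all higher in IR-A tumours, against 7.73% of all probe sets, and in 0 members on the lower side, against 9.45%. With 3 values per group, the smallest p that an exact two-sided permutation test allows is 0.1. These 4 members had that value, and the other 6 ranged from 0.2 to 0.5. The apolipoproteins are bright, with 7 of the 10 in the brightest 5% of probe sets. Among the 1237 probe sets of that brightness, 48.6% had a difference above 0, 14.5% had groups that did not overlap with IR-A higher, and 13.2% were higher and 19.1% lower at an unadjusted p under 0.05.

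The control tumours spread more than the IR-A tumours in 9 of the 10 genes, with APOA5 the exception, against 60.9% of all probe sets and 59.8% of the brightest 5%. Control tumour 1 was the lowest control in 8 members, against 28.6% of all probe sets, and the lowest of all 6 tumours in 7, against 16.9%. The mean over the 10 genes was 10.53, 10.68 and 10.48 in IR-A tumours 1 to 3, against 9.86, 10.26 and 10.45 in control tumours 1 to 3. Control tumour 3 thus lay just under the lowest IR-A tumour, and control tumour 1 furthest below.

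The genes APOA5, APOA4, APOC3 and APOA1 lie next to each other on chromosome 11, and APOE and APOC1 on chromosome 19. All 4 genes of the chromosome 11 cluster had higher mean signal, while the measured gene beside APOA5, ZPR1, a zinc finger protein, was at -0.47 (SE 0.09, adjusted p = 0.147 in limma) with groups that did not overlap. The next one, BUD13, a splicing factor, was at -0.18, or -0.05 without IR-A tumour 2. On the other flank, the antisense gene APOA1-AS was at -0.10, but at 0.02 with IR-A tumour 3 left out and 0.18 with control tumour 3 left out. The kinase SIK3 was at 0.14, and it was 0.07, 0.27 and 0.09 without control tumours 1, 2 and 3 in turn. Whether the probe set of APOA1-AS is free of APOA1 signal was not checked.

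On chromosome 19, the flanking genes TOMM40, a mitochondrial import pore, and NECTIN2, an adhesion protein, were at -0.32 and -0.07, the second at 0.04 without IR-A tumour 2. On the far side CLPTM1 was at 0.39 (SE 0.13, adjusted p = 0.269 in limma) with IR-A tumours above all controls, and RELB, an NF-kB subunit, was at -0.09, or 0.02 without IR-A tumour 1. Within the cluster, the pseudogene APOC1P1 was at 0.35 (SE 0.34) and the read-through gene APOC4-APOC2 at -0.35 (SE 0.28). With 1 tumour left out, APOC1P1 ran from 0.10 (IR-A tumour 1) to 0.68 (control tumour 2), with 0.12 for control tumour 1 and 0.52 for IR-A tumour 3. APOC4-APOC2 ran from -0.65 (control tumour 2) to -0.07 (control tumour 3). Whether the probe sets of APOC1 and APOC1P1 share signal was not checked. APOC2 and APOC4 were not analysed here.

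**Figure D3:**
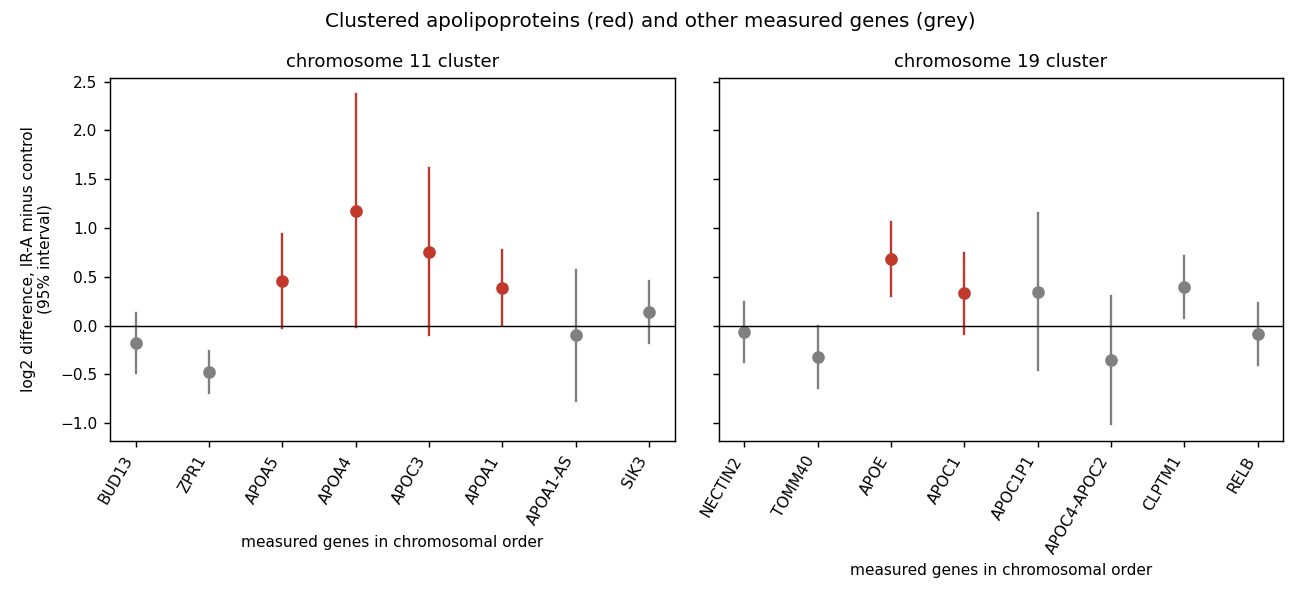
Log2 difference, IR-A minus control (y axis, with limma's 95% interval), of the measured genes of both clusters and the 2 measured genes next to each end, in chromosomal order. The 6 clustered apolipoproteins (red) all lie above 0, from 0.33 in APOC1 to 1.18 in APOA4, and the other genes (grey) lie on both sides.

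Genes of one cluster did not keep a fixed ratio in the tumours. The log2 signal of APOC3 minus that of APOA1 was 0.73, 0.77 and 0.76 in IR-A tumours, against -0.15, 0.95 and 0.35 in controls. Such a value holds the probe sets' own brightness, so only its shifts between tumours can be read. It was nearly constant in IR-A tumours and ranged over more than 1 log2 unit in controls. The value of APOC1 minus APOE was 0.69, 0.95 and 0.77 in IR-A tumours, against 1.06, 1.40 and 0.99 in controls. Its groups did not overlap, as in 1 of the 7 pairs examined, which share genes. Of single probe sets, 7.73% did not overlap with IR-A higher and 9.45% with IR-A lower, and no share was computed over other pairs. In the group means, APOE differed more than its neighbour APOC1, by 0.35 on the log2 scale, with no test of that gap. APOA4 minus APOA1 was -3.38, -2.73 and -3.66 in IR-A tumours, against -4.35, -4.57 and -3.20 in controls, so control tumour 3 broke the separation.

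The genes whose pattern over the 6 tumours was most like that of APOA4, by root mean square distance after subtracting each gene's mean, were the kinase PNCK (0.24), the creatine transporter SLC6A8 (0.25) and the membrane mucin MUC3A (0.29). SLC6A8 read 11.10, 11.42 and 10.76 in IR-A tumours, against 9.82, 9.83 and 11.21 in controls, the same high control tumour 3 as in APOA4. Their differences were 0.87 for PNCK, 0.80 for SLC6A8 and 0.95 for MUC3A. PNCK was at 0.54 without control tumour 1 and 1.45 without control tumour 3, SLC6A8 at 1.27 without control tumour 3, and MUC3A at 0.59 without control tumour 1 and 0.62 without IR-A tumour 2.

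Among 14 other apolipoproteins and related genes that were measured, 0 passed limma's adjusted threshold and 4 of 14 had an unadjusted p under 0.05, all higher, against 7.1% of all probe sets on that side. In all, 8 were above 0 and 6 below, with a median of 0.25. The lowest p values belonged to APOL6 and APOL1 of the APOL family, intracellular and plasma proteins that respond to interferon. The other measured genes of that family lay on both sides of 0. APOL1, the trypanosome-killing factor of human serum, read 5.24, 4.93 and 5.26 in IR-A tumours, against 2.91, 4.05 and 3.86 in controls. Its groups did not overlap, and its difference was 1.53 (SE 0.30, adjusted p = 0.147 in limma). APOL1 lay below the median brightness of all probe sets. APOL6 read 6.28, 6.27 and 6.28 in IR-A tumours, against 5.59, 5.81 and 5.73 in controls, a difference of 0.57 (SE 0.09, adjusted p = 0.131). CLU, also called apolipoprotein J, a chaperone of plasma, was at 0.27 (SE 0.10). Family members of APOL were not checked for shared signal.

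None of the 4 lipoprotein pathway lists had a member past limma's adjusted threshold. Of 14 genes of particle assembly and secretion, 12 were above 0 with a median of 0.23, 6 of the 14 being higher at an unadjusted p under 0.05, against 7.1% of all probe sets and 13.2% of the brightest 5%. MTTP, the transfer protein that loads lipid onto APOB, read 10.64, 10.52 and 10.68 in IR-A tumours, against 10.34, 10.08 and 10.42 in controls, and the difference was 0.33 (SE 0.12, adjusted p = 0.294). MIA2, which helps export large cargo from the endoplasmic reticulum, was at 1.01 (SE 0.23), and the lipid scramblase TMEM41B at 0.47 (SE 0.14). The groups did not overlap in 6 of the 14, all higher in IR-A tumours, with MTTP, MIA2 and TMEM41B among them. This compares with 7.73% of all probe sets and 14.5% of the brightest 5%.

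Of 14 plasma enzymes, transfer proteins and genes of high density lipoprotein formation, 9 were above 0 with a median of 0.27, 5 of the 14 being higher at an unadjusted p under 0.05, against 7.1% of all probe sets. ANGPTL8, a lipase inhibitor that insulin is known to induce, read 7.94, 8.72 and 8.03 in IR-A tumours, against 6.86, 7.03 and 7.32 in controls, a difference of 1.16 (SE 0.23, adjusted p = 0.147). ABCA1 was at 0.67 (SE 0.19) and the phospholipase GPLD1 at 0.93 (SE 0.23), both with groups that did not overlap. This held for 5 of the 14, all higher in IR-A tumours, against 7.73% of all probe sets. Of 9 measured receptors, 8 were above 0 with a median of 0.12. At an unadjusted p under 0.05, 2 of the 9 were higher, against 7.1% of all probe sets, and 1 was lower, against 7.03%. LRP8, a receptor for APOE and reelin, was the 1 below, at -0.77 (SE 0.13, adjusted p = 0.140), or -0.88 without control tumour 2, where it passed (adjusted p = 0.0477). VLDLR was at 0.56 (SE 0.18) and the endocytic receptor CUBN at 0.60 (SE 0.16).

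Of 22 transcription factors and cofactors known at apolipoprotein genes, 15 were above 0 with a median of 0.22, 5 of the 22 being higher at an unadjusted p under 0.05, against 7.1% of all probe sets. PPARGC1A, a coactivator of fasting metabolism, read 6.76, 7.33 and 6.24 in IR-A tumours, against 5.14, 5.49 and 5.38 in controls, a difference of 1.44 (SE 0.27, adjusted p = 0.147 in limma). PPARA, the receptor through which fibrates act on these genes, was at 1.19 (SE 0.30), and NR0B2, a corepressor, at 0.70 (SE 0.22). FOXO1 was at -0.14 (SE 0.18, unadjusted p = 0.457), and with 1 tumour left out it ran from -0.30 (IR-A tumour 2) to -0.006 (IR-A tumour 1).

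**Figure D4:**
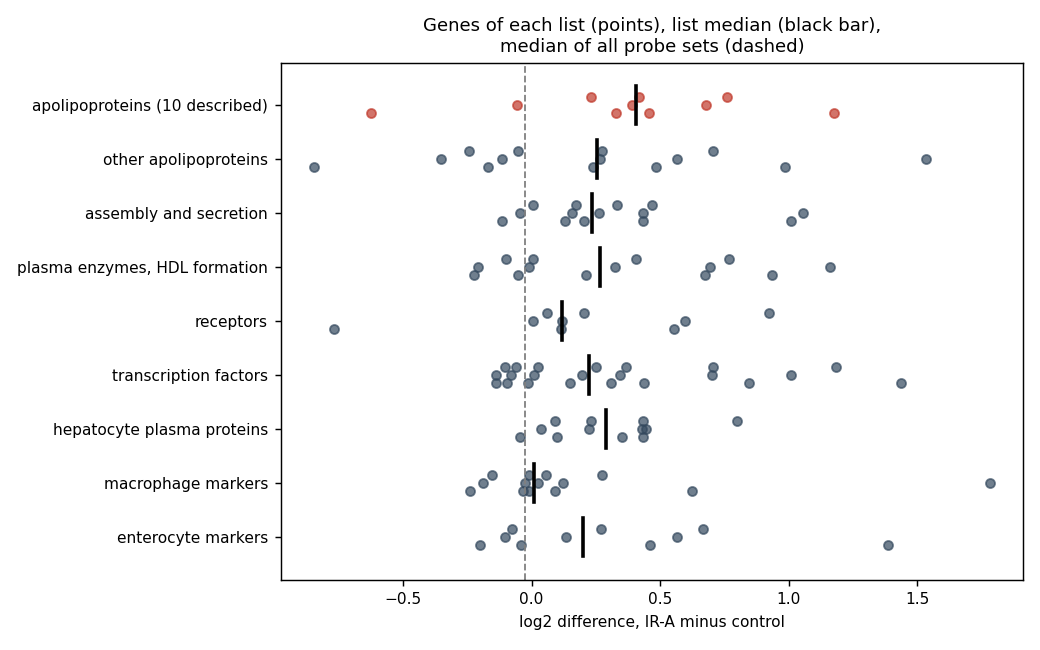
Log2 difference, IR-A minus control (x axis), of each measured gene in 9 lists, with the list median as a black bar and the median of all probe sets, -0.03, as a dashed line. The 10 apolipoproteins (red) have a median of 0.40, hepatocyte plasma proteins 0.29 and macrophage markers 0.01.

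Hepatocyte plasma proteins were bright in every tumour and include the defining markers of the labelled liver line. ALB, serum albumin, read 13.09, 13.01 and 12.99 in IR-A tumours, against 12.93, 13.04 and 12.82 in controls. The mean of these 12 genes was 12.23 to 12.36 in IR-A tumours, against 11.86 to 12.18 in control tumours, and 11 of 12 were above 0, with AMBP at 0.43, VTN at 0.80, or 0.49 without control tumour 1, and TF at 0.35. At an unadjusted p under 0.05, 5 of the 12 were higher, against 7.1% of all probe sets and 13.2% of the brightest 5%, and the groups did not overlap in 5, against 7.73% and 14.5%. Their mean was lowest in control tumour 1, as that of the apolipoproteins was, but not every gene followed, and ALB was lowest in control tumour 3. The part of these 12 genes in the apolipoprotein differences was not tested. In bulk tumours, fewer cells of a type and less RNA per cell cannot be told apart.

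Macrophages also make APOE and APOC1, and enterocytes make APOA4 and APOB. These tumours of a human line grew in mice, so macrophages from the host would be mouse cells. How far the probe sets read mouse RNA was not tested. Of 14 macrophage markers, 7 were above 0 and 7 below, with a median of 0.01, and 10 were below the median brightness. Their mean was 5.04 to 5.08 in IR-A tumours, against 4.85 to 4.95 in control tumours. The largest differences were in TYROBP, a signalling adaptor of myeloid cells, at 1.78 (SE 0.29), and the lysosomal protein CD68, at 0.62 (SE 0.21). TYROBP and CD68 weigh most in the list mean, which therefore does not describe the other markers. TYROBP was at 2.05 without control tumour 2, where it passed limma's threshold (adjusted p = 0.0363). The monocyte receptor CD14 was at -0.24, or -0.15 without IR-A tumour 3, with means of 3.06 in IR-A tumours and 3.30 in control tumours, in the dim range. Of 10 enterocyte markers, 6 were above 0 with a median of 0.20, and 5 were below the median brightness. The mean of the 10 was 5.80 to 6.05 in IR-A tumours, against 5.48 to 5.65 in control tumours. The largest difference was that of the retinol-binding protein RBP2, at 1.39 (SE 0.58), or 0.73 without control tumour 1. Next were the brush border peptidases DPP4 and ANPEP, at 0.67 and 0.56. RBP2, DPP4 and ANPEP were bright, and which cells gave their signal was not tested. The intestinal fatty acid-binding protein FABP2 was dim, at 2.67 in IR-A tumours and 2.72 in control tumours. The part of these markers in the apolipoprotein differences was not tested.

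**Figure D5:**
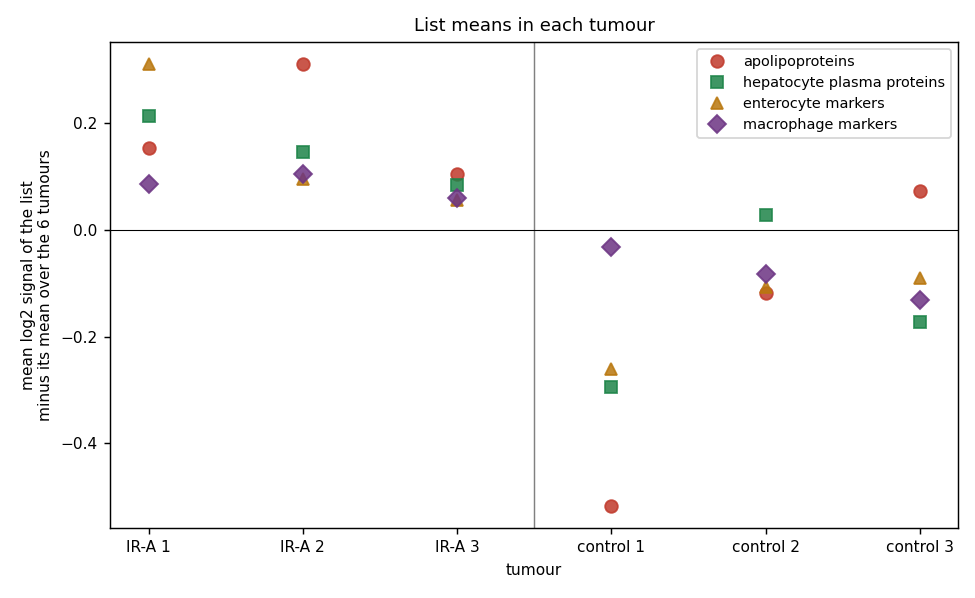
Mean log2 signal of 4 gene lists in each tumour, minus the list's mean over the 6 tumours (y axis). The apolipoproteins, the hepatocyte plasma proteins and the enterocyte markers are lowest in control tumour 1, and all 4 lists lie above 0 in the 3 IR-A tumours. TYROBP and CD68 weigh most in the macrophage mean, and the median difference of that list was 0.01.

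INSR, the overexpressed gene, checked the labels. It read 10.65, 11.31 and 11.01 in IR-A tumours, against 8.04, 7.61 and 8.47 in control tumours. The difference was 2.95 (SE 0.26, adjusted p = 0.0769 in limma), a 7.75-fold signal. Even the transfected gene thus missed limma's adjusted threshold in the reported fit. Missing that threshold therefore does not show that a gene was unchanged, and this holds for the apolipoproteins too. Across all probe sets, control tumour 2 correlated less with the other controls (mean r 0.982) than with the IR-A tumours (0.987). With control tumour 2 left out, 308 probe sets passed the adjusted threshold, and 0 of the 10 apolipoproteins did. The labels do not tie tumours to separate mice or cultures, and the p-values therefore reflect spread that may be technical. The added receptor cannot be told apart from any other difference between the selected cell populations of the groups.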

How the data were processed

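RNA of 3 IR-A and 3 control tumours was read on 1 array each. The deposited values are log2 signals per gene-level probe set, from 1.91 to 13.22. RMA, which corrects background and normalizes between arrays, and Partek are named in the submitters' processing notes. The sources used here give neither array model nor probe set definition nor build. How far differences of dim or of very bright probe sets were compressed was not tested.

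GEO's annotation gave 1 symbol to 23934 probe sets, several to 0 and none to 792. For 3 symbols with more than 1 probe set, the brightest was kept. All 24726 probe sets were fitted with lmFit and eBayes of limma 3.58.1 (R 4.3.3), without trend or filter, and adjusted with Benjamini-Hochberg over all of them at 0.05. Exact permutation tests used scipy 1.17.1, and the fit was tested on simulated data. The number of arrays limits the precision.

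The members, the gene lists and the rule for named genes were chosen with earlier results of these data known. The rule took all 10 members, INSR, the members of each list past the threshold or else the 3 of smallest p, cluster neighbours, and the 3 genes most like the member of largest difference. ALB, FABP2 and FOXO1 lie outside the rule and were named after their values were seen. Alternatives were quantile normalization, median centring, leaving out the dimmest 25% or 50%, an intensity trend, array weights, robust moderation, a replicate block, and fits with each tumour left out. The replicate numbers are not said to pair the tumours. The correlations of same-numbered deviations were -0.29, -0.36 and 0.02, which cannot show whether tumours shared a batch or day. Gene order and promoters came from RefSeq on GRCh38.p14.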

Additional observations from a re-analysis of the deposited data

How the results depend on the processing

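None of the 10 apolipoproteins passed an adjusted p of 0.05 in any of 14 other settings or passed 0.1 as reported. Of the 10, 9 kept their direction in all 14, and APOA2 turned to 0.075 under quantile normalization. Their median of 0.40 ran from 0.28 to 0.49 over left-out tumours. The 4 members at an unadjusted p under 0.05 were 6 after median centring, 1 to 5 over left-out tumours and 2 with the replicate number as a block. The replicate block changed no call after adjustment (0 probe sets). Counts by setting of unadjusted p and of groups that did not overlap were added after the data were seen. The latter, 4 as reported, were 4 after quantile normalization or median centring and 4 to 6 over left-out tumours, where fewer values are compared. The count of all probe sets called, 0 as reported, was 14 and 20 without the dimmest 25% and 50%, where fewer were tested, 11 with array weights, 18 at an adjusted p under 0.1, 3493 at an unadjusted p under 0.05, and 0 to 308 over left-out tumours, with calls only without control tumour 2 (the cause was not tested). Of 41 other genes named, 3 changed sign in 1 or 2 settings, all over left-out tumours. These were APOA1-AS (-0.34 to 0.18), NECTIN2 (-0.13 to 0.042) and RELB (-0.16 to 0.024). INSR, LRP8 and TYROBP passed in 1 or more settings. How far each probe set lay above background is not known.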
